A study of Mus musculus with 12 samples.

Results

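The antioxidant targets of NRF2 described here are 10 genes: Hmox1, Slc7a11, Gclc, Gclm, Gsr, G6pdx, Txnrd1, Srxn1, Nqo1 and Osgin1. They were chosen by symbol among the 37991 genes of the deposited table, in which each symbol has 1 row. Their levels were measured by RNA sequencing in 12 libraries of plated primary hepatocytes from male mice, 3 for each combination of genotype and treatment. All mice carried loxP-flanked alleles of both REV-ERB genes, Nr1d1 and Nr1d2, which encode circadian repressors. The mice were 10 weeks old, and an AAV8 virus had been injected 2 weeks before the cells were isolated. The TBG promoter of that virus, which is active in hepatocytes, drove Cre with GFP in the mice labelled KO and GFP alone in the control mice. The cells were then exposed for 8 h to 10 µM SR9009, a synthetic REV-ERB agonist, or to its solvent DMSO. These 4 groups are called KO-labelled SR9009, KO-labelled DMSO, control SR9009 and control DMSO below, and cells given Cre without loxP sites were not analysed here. The labels do not say whether the 3 libraries of a group came from separate mice or separate plates, so the p-values speak only of the spread among these libraries, which may be technical.

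NRF2, encoded by Nfe2l2, is a transcription factor that KEAP1 holds in the cytoplasm and sends to the proteasome. Oxidants and electrophiles modify KEAP1, NRF2 then accumulates, pairs with a small MAF protein and binds antioxidant response elements near its target genes. BACH1, a heme-sensing repressor, competes for the same elements. In the liver this system supplies glutathione, thioredoxin reduction and quinone detoxification during the metabolism of drugs and other foreign compounds.

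Values are FPKM, fragments counted per kilobase of transcript and scaled to library size, so levels of different genes can be compared per length. Each library summed to between 538521 and 604449 FPKM, and between 10611 and 10932 genes reached 1 FPKM. Total read counts were not used here, but the steps between low values gave relative depth. The deepest, control DMSO library 1, was set to 100%, and the shallowest were control SR9009 library 1 at 55.5% and KO-labelled DMSO library 1 at 63.4%, with the rest at 77.0% to 92.3%. Nr1d1 stood at 17.4, 17.5 and 18.3 FPKM in KO-labelled DMSO and at 18.3, 18.3 and 19.0 FPKM in control DMSO (two-sided exact permutation p = 0.1, the smallest that 3 against 3 libraries allow). Nr1d2 stood at 16.3, 16.2 and 16.1 FPKM in KO-labelled DMSO and at 13.9, 14.7 and 17.4 FPKM in control DMSO (exact permutation p = 0.4). With SR9009, Nr1d1 had 22.5, 21.5 and 22.2 FPKM in KO-labelled and 20.1, 19.0 and 19.4 in control libraries. Nr1d2 had 15.9, 18.2 and 18.9 against 16.7, 15.7 and 13.5 FPKM. By the threshold given below, 1 of the 2 was higher in KO-labelled SR9009 than in KO-labelled DMSO. The same count held against control SR9009 (0 to 1 over the alternatives). The labels do not name the exons between the loxP sites, and a value here spans a whole gene model, which makes it no check of deletion or labels. Hepatocyte markers were high in every library, with Alb at 18369 to 20882 FPKM. Of the 5 cholangiocyte markers 2 stayed under 1 FPKM in every library while Spp1 reached 56.8 FPKM, and of the 6 stellate cell markers 5 did while Reln reached 2.60 FPKM.

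RefSeq promoter windows of 300 bases (build GRCm38.p6, 250 bases before to 50 bases from the start site on) were found for 7 of the 10 genes, with 3 windows for Txnrd1, and none was used for Hmox1, Gclc or Gsr. Both strands were searched for the core of the antioxidant response element, TGACNNNGC, for the AP-1 core TGANTCA, and for TGATGCAA, the amino acid response element that ATF4 is known to use. The antioxidant core was present for 4 of the 7 genes, against 17.4% of 7500 tested genes with a window. The windows below are those of 5 genes whose levels the results turn on. Capitals mark the matches, none of which shared bases with another. Srxn1 (chr2:152105274-152105573, plus strand) has an antioxidant core at base 29 counted from the start site, read TGACCTAGC on the minus strand, and AP-1 cores that begin 102 and 45 bases before the start site. The nearer of these AP-1 cores is followed by GC, and was not counted as an antioxidant core because it begins TGAG and not TGAC. Gclm (chr3:122245307-122245606, plus strand) has an antioxidant core that begins 134 bases before it, and a Txnrd1 window (chr10:82858956-82859255, plus strand) has one that begins 92 bases before it, both on the minus strand. Osgin1 (chr8:119436897-119437196, plus strand) has an AP-1 core, TGACTCA, that begins 97 bases before the start site. Slc7a11 (chr3:50443564-50443863, minus strand, printed in the direction of transcription) has the amino acid response element on each strand, beginning 66 and 47 bases before the start site.
Srxn1: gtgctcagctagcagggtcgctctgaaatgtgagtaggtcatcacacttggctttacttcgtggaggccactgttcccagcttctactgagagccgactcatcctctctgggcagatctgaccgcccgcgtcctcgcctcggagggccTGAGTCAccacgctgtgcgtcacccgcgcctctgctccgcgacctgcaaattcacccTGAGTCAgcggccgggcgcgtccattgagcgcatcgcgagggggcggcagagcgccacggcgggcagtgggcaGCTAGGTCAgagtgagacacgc
Gclm: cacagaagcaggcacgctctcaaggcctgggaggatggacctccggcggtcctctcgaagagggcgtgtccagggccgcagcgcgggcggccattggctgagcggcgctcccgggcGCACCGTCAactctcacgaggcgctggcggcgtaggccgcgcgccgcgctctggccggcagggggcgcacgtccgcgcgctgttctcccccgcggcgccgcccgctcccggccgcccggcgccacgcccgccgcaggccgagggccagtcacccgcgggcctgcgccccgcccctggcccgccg
Txnrd1: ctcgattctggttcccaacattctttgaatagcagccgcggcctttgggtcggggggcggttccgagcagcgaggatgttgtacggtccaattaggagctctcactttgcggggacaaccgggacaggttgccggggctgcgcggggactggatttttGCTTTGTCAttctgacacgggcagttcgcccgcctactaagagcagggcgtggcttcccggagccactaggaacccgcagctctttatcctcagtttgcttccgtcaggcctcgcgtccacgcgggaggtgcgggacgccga
Osgin1: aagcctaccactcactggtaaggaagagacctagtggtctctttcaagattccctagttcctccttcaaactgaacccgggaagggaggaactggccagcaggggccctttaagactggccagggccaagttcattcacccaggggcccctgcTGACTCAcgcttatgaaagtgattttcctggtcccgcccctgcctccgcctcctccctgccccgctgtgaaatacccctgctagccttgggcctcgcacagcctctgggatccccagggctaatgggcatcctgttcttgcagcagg
Slc7a11: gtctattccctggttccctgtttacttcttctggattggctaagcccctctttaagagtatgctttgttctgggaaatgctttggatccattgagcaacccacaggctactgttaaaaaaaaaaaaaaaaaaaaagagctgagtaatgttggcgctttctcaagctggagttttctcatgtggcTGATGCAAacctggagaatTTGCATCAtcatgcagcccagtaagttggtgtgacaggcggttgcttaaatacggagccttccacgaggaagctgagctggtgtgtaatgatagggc
The AP-1 core stood in 6.25% and TGATGCAA in 0.8% of the 7500 tested genes with a window, and in 2 and 1 of the 7 genes here. G6pdx also held the antioxidant core, 57 bases before its start site, while the Nqo1 window and the other Txnrd1 windows held none of these letters. A match is a description of the window and was not tied to the binding of any factor.

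SR9009 raised most of these genes in KO-labelled cells and fewer in control cells. It lowered 0 of the 10 past the threshold in either genotype, where 4.56% of the 11213 tested genes were called lower in KO-labelled and 4.55% in control cells. In KO-labelled cells 7 of the 10 rose (Hmox1, Slc7a11, Gclm, Gsr, Txnrd1, Nqo1 and Osgin1), against 5.32% of tested genes called higher. Every SR9009 value lay above every DMSO value for 9 of the 10, all but G6pdx, against 16.9% of tested genes. The median log2 fold change of the 10 was 0.45, against 0.0042 over all tested genes. In control cells 4 of the 10 rose (Hmox1, Gsr, Txnrd1 and Osgin1), against 3.69% of tested genes, and the median log2 fold change of the 10 was 0.17 against -0.016 over all. That count was 2 without control DMSO library 3 and in a fit to these groups alone. In control cells every SR9009 value lay above every DMSO value for 5 of the 10, against 10.8% of tested genes. For 1 of the 10, Gclc, every SR9009 value lay below, against 14.2%. All 10 genes passed the filter on low values, and the comparisons used limma on log2(FPKM + 1) with Benjamini-Hochberg adjustment over all tested genes at a threshold of 0.05. The fold changes are on that scale, which understates the change of low genes, and folds are ratios of group means. Errors after ± are SDs over n = 3 libraries. SR9009 also lowered 4 of 8 hepatocyte markers in each genotype and raised 0. Over the alternatives 3 to 4 fell in KO-labelled cells and 1 to 5 in control cells, with 1 in a fit to these groups alone and 2 without any 1 of the control DMSO libraries. Their summed level was 31158 to 32055 FPKM in KO-labelled SR9009 and 33431 to 35677 in KO-labelled DMSO, and 28161 to 30223 in control SR9009 and 31825 to 32423 in control DMSO. The part of this in the results was not tested. Fewer cells of a type and less RNA per cell cannot be told apart in bulk libraries.

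**Figure D1:**
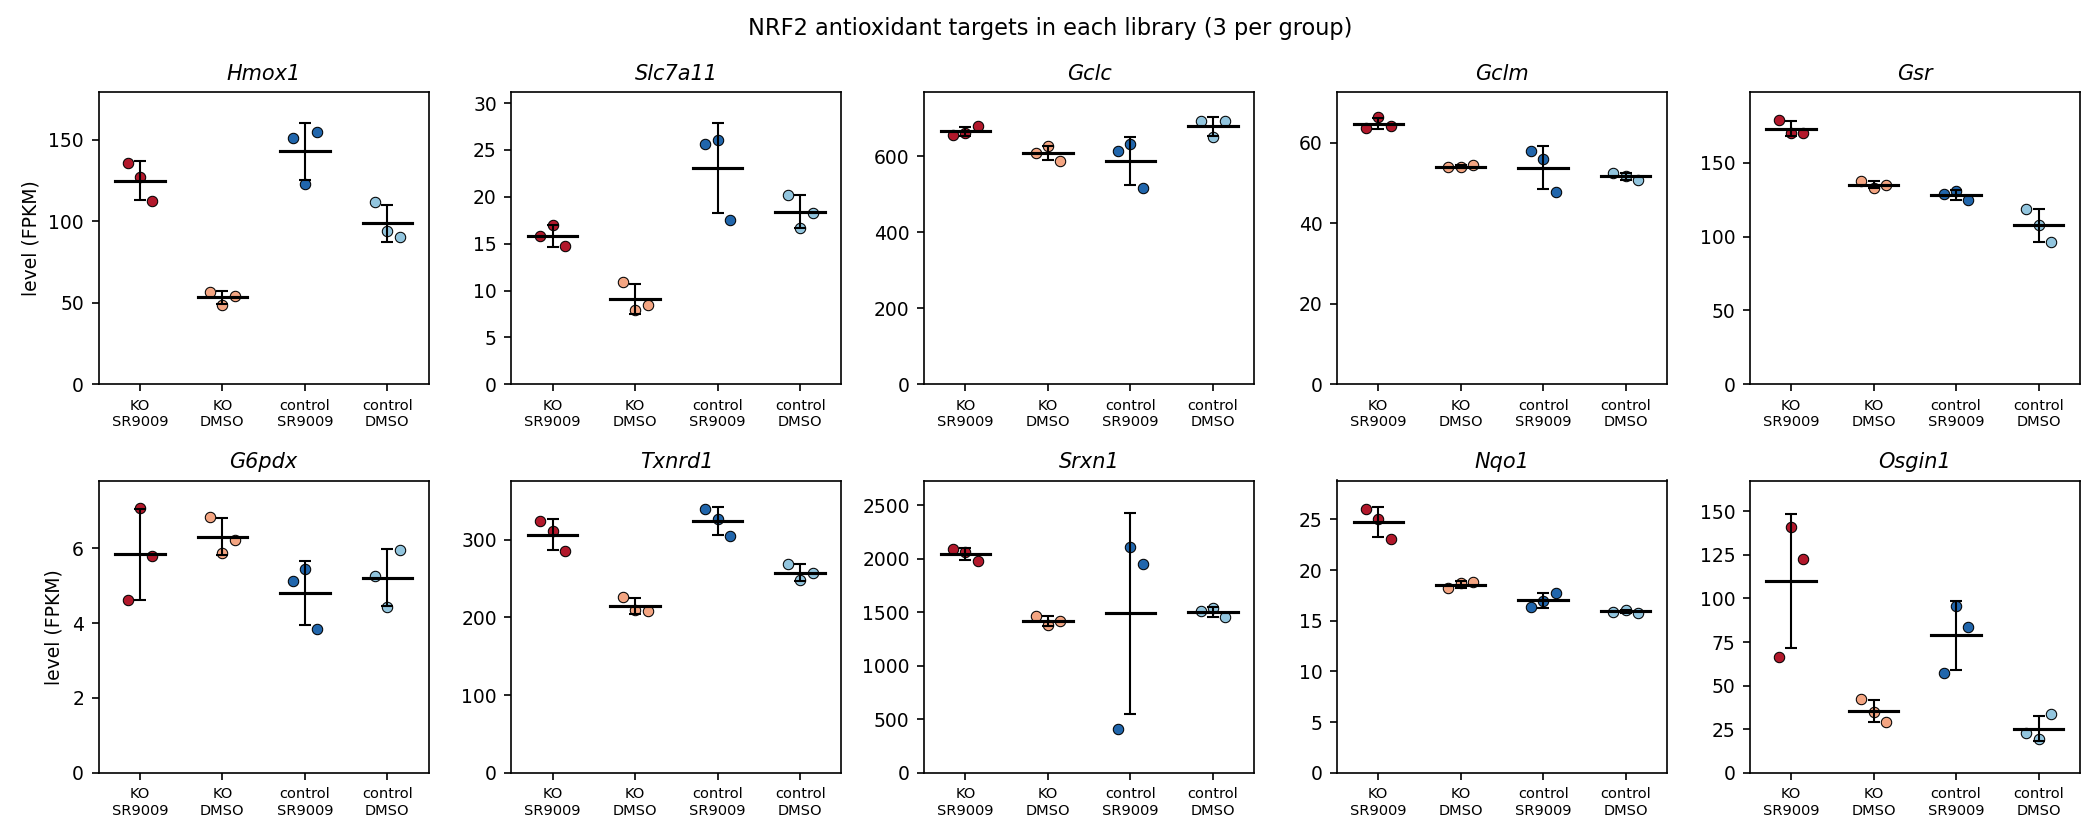
Levels in FPKM (vertical axes from 0) of the 10 NRF2 antioxidant targets in each library, by group. Points are libraries, the long line is the mean and the error bar the SD (n = 3). Hmox1 and Slc7a11 are lowest in KO-labelled DMSO, Nqo1 and Gsr are highest in KO-labelled SR9009, and 1 control SR9009 library lies far below the other Srxn1 values, at 409 FPKM.

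Hmox1 (heme oxygenase 1, ENSMUSG00000005413, mm9 chromosome 8, 77617490 to 77624495, plus strand) breaks heme down to biliverdin, iron and carbon monoxide, and is a classic target of both NRF2 and BACH1. It stood at 135, 127 and 112 FPKM in KO-labelled SR9009 and at 56.6, 48.9 and 54.2 FPKM in KO-labelled DMSO libraries. In control cells it stood at 151, 123 and 155 FPKM with SR9009 and at 111, 94.0 and 90.3 FPKM in DMSO. All KO-labelled DMSO values lay below all others, and the SR9009 values of the 2 genotypes overlapped. In KO-labelled cells the gene rose 2.35-fold with SR9009 (log2 fold change 1.21, SE 0.11, adjusted p = 3.01e-05), and in control cells 1.45-fold (log2 fold change 0.53, SE 0.11, adjusted p = 0.0106). The rise in control cells ended as a call without control DMSO library 3 (adjusted p = 0.0502), without the 2 shallowest libraries (0.0532) and in a fit to these 2 groups alone (0.0511). In DMSO the gene was 1.85-fold lower in KO-labelled cells (log2 fold change -0.87, SE 0.11, adjusted p = 0.000113). Under SR9009 the difference between the genotypes was -0.19 on the log2 scale (adjusted p = 0.250).

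Slc7a11 (ENSMUSG00000027737, mm9 chromosome 3, 50168858 to 50247535, minus strand) is the cystine importer xCT, which supplies cysteine for glutathione and is a target of ATF4 as well as NRF2. Its levels were 15.8, 17.0 and 14.7 FPKM in KO-labelled SR9009 and 10.9, 7.97 and 8.46 FPKM in KO-labelled DMSO libraries. Control cells had 25.6, 26.1 and 17.6 FPKM with SR9009 and 20.2, 16.7 and 18.2 FPKM in DMSO. Within KO-labelled cells the SR9009 values all exceeded the DMSO values (log2 fold change 0.74, SE 0.15, adjusted p = 0.00705), a 1.74-fold rise. In control cells the treatments overlapped (log2 fold change 0.30, SE 0.15, adjusted p = 0.273), and among the 21 alternatives the change passed only without control SR9009 library 3 (log2 fold change 0.47, adjusted p = 0.0344). KO-labelled cells had 2.02-fold less than control cells in DMSO (log2 fold change -0.95, SE 0.15, adjusted p = 0.000641). Under SR9009 the gene was again lower in KO-labelled cells (log2 fold change -0.50, SE 0.15, adjusted p = 0.0303), but that call ended in 7 of 21 alternatives, among them leaving out control SR9009 library 1 or 2 or KO-labelled SR9009 library 1 or 3 (adjusted p of 0.0968, 0.101, 0.0713 and 0.103). The promoter printed above holds the amino acid response element on both strands.

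Glutamate-cysteine ligase makes the first step of glutathione synthesis from a catalytic subunit, encoded by Gclc, and a modifier subunit, encoded by Gclm. Gclm (ENSMUSG00000028124, mm9 chromosome 3, 121948475 to 121972902, plus strand) stood at 63.7, 66.2 and 64.2 FPKM in KO-labelled SR9009 and at 53.9, 53.8 and 54.4 FPKM in KO-labelled DMSO libraries. It stood at 57.9, 55.8 and 47.7 FPKM in control SR9009 and at 52.5, 51.6 and 50.7 FPKM in control DMSO libraries. The KO-labelled SR9009 values lay above those of KO-labelled DMSO and of control SR9009. Gclm rose 1.20-fold with SR9009 in KO-labelled cells (log2 fold change 0.26, SE 0.07, adjusted p = 0.0278), a call that ended in 10 of 21 alternatives, including the removal of any 1 of the 6 KO-labelled libraries (adjusted p of 0.0652 to 0.0996). In control cells its log2 fold change was 0.05 (adjusted p = 0.699). Between genotypes it differed by 0.27 under SR9009 (adjusted p = 0.0120; 0.0743 with these groups alone) and by 0.07 in DMSO (adjusted p = 0.532).

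Gclc (ENSMUSG00000032350, mm9 chromosome 9, 77602342 to 77642292, plus strand) stood at 656, 659.9 and 679 FPKM in KO-labelled SR9009 and at 609, 626 and 588 FPKM in KO-labelled DMSO libraries. It stood at 613, 633 and 516 FPKM in control SR9009 and at 692, 650.0 and 692 FPKM in control DMSO libraries. The SR9009 values lay above the DMSO values in KO-labelled cells and below them in control cells. Neither difference passed the threshold (log2 fold changes of 0.13 and -0.21, adjusted p of 0.295 and 0.0880), although the control one did without control SR9009 library 2 (log2 fold change -0.27, adjusted p = 0.0467). Its genotype differences did not pass either (log2 0.18 under SR9009 and -0.16 in DMSO, adjusted p of 0.0824 and 0.135), with the first past the threshold without control SR9009 library 2 (0.036) and the second without control SR9009 library 3 (0.0161) and with these groups alone (0.0448). Gclc was the more abundant subunit per length in every library. The ratio of Gclc to Gclm in FPKM was 10.3 ± 0.311 in KO-labelled SR9009, 11.2 ± 0.405 in KO-labelled DMSO, 10.9 ± 0.378 in control SR9009 and 13.1 ± 0.525 in control DMSO, so that the control DMSO libraries stood above the rest.

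Gsr (ENSMUSG00000031584, mm9 chromosome 8, 34762995 to 34808635, plus strand) is glutathione reductase, which returns oxidised glutathione to its reduced form at the cost of NADPH. Levels of 179, 170.2 and 170.2 FPKM in KO-labelled SR9009 stood against 138, 133 and 135 FPKM in KO-labelled DMSO libraries. Control cells had 129, 131 and 125 FPKM with SR9009 and 119, 108 and 96.6 FPKM in DMSO. The 4 groups did not overlap, and both KO-labelled groups lay above both control groups. SR9009 raised Gsr 1.28-fold in KO-labelled cells (log2 fold change 0.35, SE 0.07, adjusted p = 0.00523) and 1.19-fold in control cells (log2 fold change 0.25, SE 0.07, adjusted p = 0.0353). The control call ended in 11 of 21 alternatives, with adjusted p up to 0.16. Libraries whose removal ended it were control DMSO 2 and 3 (0.091 and 0.123), control SR9009 1 and 2 (0.0851 and 0.0862), KO-labelled DMSO 2 and 3 (0.0519 and 0.0526) and KO-labelled SR9009 2 (0.0539). Gsr was higher in KO-labelled than in control cells in DMSO (1.26-fold; log2 fold change 0.33, SE 0.07, adjusted p = 0.00385) and under SR9009 (1.35-fold; log2 fold change 0.43, SE 0.07, adjusted p = 0.000562).

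G6pdx (ENSMUSG00000031400, mm9 chromosome X, 71654822 to 71674533, minus strand) is glucose-6-phosphate dehydrogenase, which makes NADPH in the pentose phosphate pathway. It was the least abundant of the 10, at 4.63, 7.07 and 5.80 FPKM in KO-labelled SR9009, 6.83, 5.87 and 6.23 in KO-labelled DMSO, 5.13, 5.45 and 3.83 in control SR9009 and 5.25, 4.44 and 5.96 in control DMSO libraries. Neighbouring groups overlapped and no comparison passed the threshold, with adjusted p between 0.295 and 0.754 in the 4 comparisons. Its model lies over its whole 19712 bp within that of Ikbkg on the opposite strand, which had 26.7 to 54.1 FPKM. No source used here gives the strand setting of the counting, so the G6pdx level is uncertain.

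Txnrd1 (ENSMUSG00000020250, mm9 chromosome 10, 82296696 to 82360469, plus strand) is the cytosolic thioredoxin reductase, a selenoprotein that keeps thioredoxin reduced. It stood at 324, 311 and 285 FPKM in KO-labelled SR9009 and at 226, 209 and 208 FPKM in KO-labelled DMSO libraries. Control libraries held 340.0, 327 and 305 FPKM with SR9009 and 269, 248 and 257 FPKM in DMSO. As with Hmox1, the groups ran in the order KO-labelled DMSO, control DMSO, KO-labelled SR9009 and control SR9009, and only the last 2 overlapped. Txnrd1 rose 1.43-fold with SR9009 in KO-labelled cells (log2 fold change 0.51, SE 0.06, adjusted p = 0.000365) and 1.26-fold in control cells (log2 fold change 0.33, SE 0.06, adjusted p = 0.00786). In DMSO it was lower in KO-labelled cells (log2 fold change -0.26, SE 0.06, adjusted p = 0.0111). After quantile normalization the control rise and the DMSO difference no longer passed (adjusted p of 0.0629 and 0.0635). Under SR9009 the genotype difference was -0.08 (adjusted p = 0.425). Set against Gsr, the other disulfide reductase, the ratio of Gsr to Txnrd1 in FPKM was 0.566 ± 0.0267 in KO-labelled SR9009 and 0.630 ± 0.0196 in KO-labelled DMSO. In control cells that ratio was 0.397 ± 0.0149 with SR9009 and 0.417 ± 0.0360 in DMSO.

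Srxn1 (ENSMUSG00000032802, mm9 chromosome 2, 151931252 to 151937112, plus strand) encodes sulfiredoxin, which restores over-oxidised peroxiredoxins, and was the most abundant of the 10 per length. It stood at 2088, 2063 and 1975 FPKM in KO-labelled SR9009 and at 1465, 1377 and 1414 FPKM in KO-labelled DMSO libraries. Control SR9009 libraries had 409, 2105 and 1951 FPKM and control DMSO libraries 1508, 1539.8 and 1456 FPKM. The first control SR9009 library, which is also the shallowest, lay 2.30 below the other 2 on the log2 scale, and 7 of the 11213 tested genes were as far below in that library. With it, no comparison passed: the log2 fold change with SR9009 was 0.53 in KO-labelled cells (SE 0.49, adjusted p = 0.577) and -0.33 in control cells (SE 0.49, adjusted p = 0.758). Without it, the same values were 0.53 in KO-labelled cells (adjusted p = 8.55e-05) and 0.43 in control cells (adjusted p = 0.00142). In KO-labelled cells alone, fitted without any control library, the rise also passed (adjusted p = 0.000443). The DMSO groups of the 2 genotypes overlapped, with a log2 difference of -0.08 (adjusted p = 0.929; 0.281 without that library). Under SR9009 the log2 difference between genotypes was 0.78 (adjusted p = 0.303), and 0.011 without that library (adjusted p = 0.921).

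Nqo1 (ENSMUSG00000003849, mm9 chromosome 8, 109912125 to 109927106, minus strand) is the quinone reductase often used as a readout of NRF2. Its levels were 26.0, 25.0 and 23.1 FPKM in KO-labelled SR9009, against 18.2, 18.7 and 18.8 FPKM in KO-labelled DMSO libraries. In control cells they were 16.3, 16.9 and 17.8 FPKM with SR9009 and 15.9, 16.1 and 15.7 FPKM in DMSO. As for Gsr, the groups did not overlap and ran upward from control DMSO through control SR9009 and then KO-labelled DMSO to KO-labelled SR9009. Nqo1 rose 1.33-fold with SR9009 in KO-labelled cells (log2 fold change 0.39, SE 0.06, adjusted p = 0.00187). In control cells its log2 fold change was 0.09 (SE 0.06, adjusted p = 0.446). KO-labelled cells exceeded control cells under SR9009 (1.45-fold; log2 fold change 0.51, SE 0.06, adjusted p = 8.46e-05) and in DMSO (1.17-fold; log2 fold change 0.21, SE 0.06, adjusted p = 0.0312). The DMSO difference ended as a call in 9 of 21 alternatives, with adjusted p up to 0.0898, including the removal of any 1 of the 6 DMSO libraries (0.0572 to 0.0898).

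Osgin1 (ENSMUSG00000074063, mm9 chromosome 8, 121958024 to 121970156, plus strand), a growth inhibitor induced by oxidative stress, had the largest SR9009 folds of the 10. It stood at 66.5, 141 and 123 FPKM in KO-labelled SR9009 and at 42.4, 34.7 and 29.4 FPKM in KO-labelled DMSO libraries. Control cells had 57.2, 95.8 and 83.7 FPKM with SR9009 and 23.0, 19.6 and 33.6 FPKM in DMSO. Every SR9009 value exceeded every DMSO value, and the genotypes overlapped within each treatment. In each SR9009 group, library 1 was lowest. The rise was 3.10-fold in KO-labelled cells (log2 fold change 1.55, SE 0.30, adjusted p = 0.00966) and 3.11-fold in control cells (log2 fold change 1.60, SE 0.30, adjusted p = 0.0101). Genotype differences were 0.44 under SR9009 and 0.49 in DMSO on the log2 scale (adjusted p of 0.354 and 0.302).

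**Figure D2:**
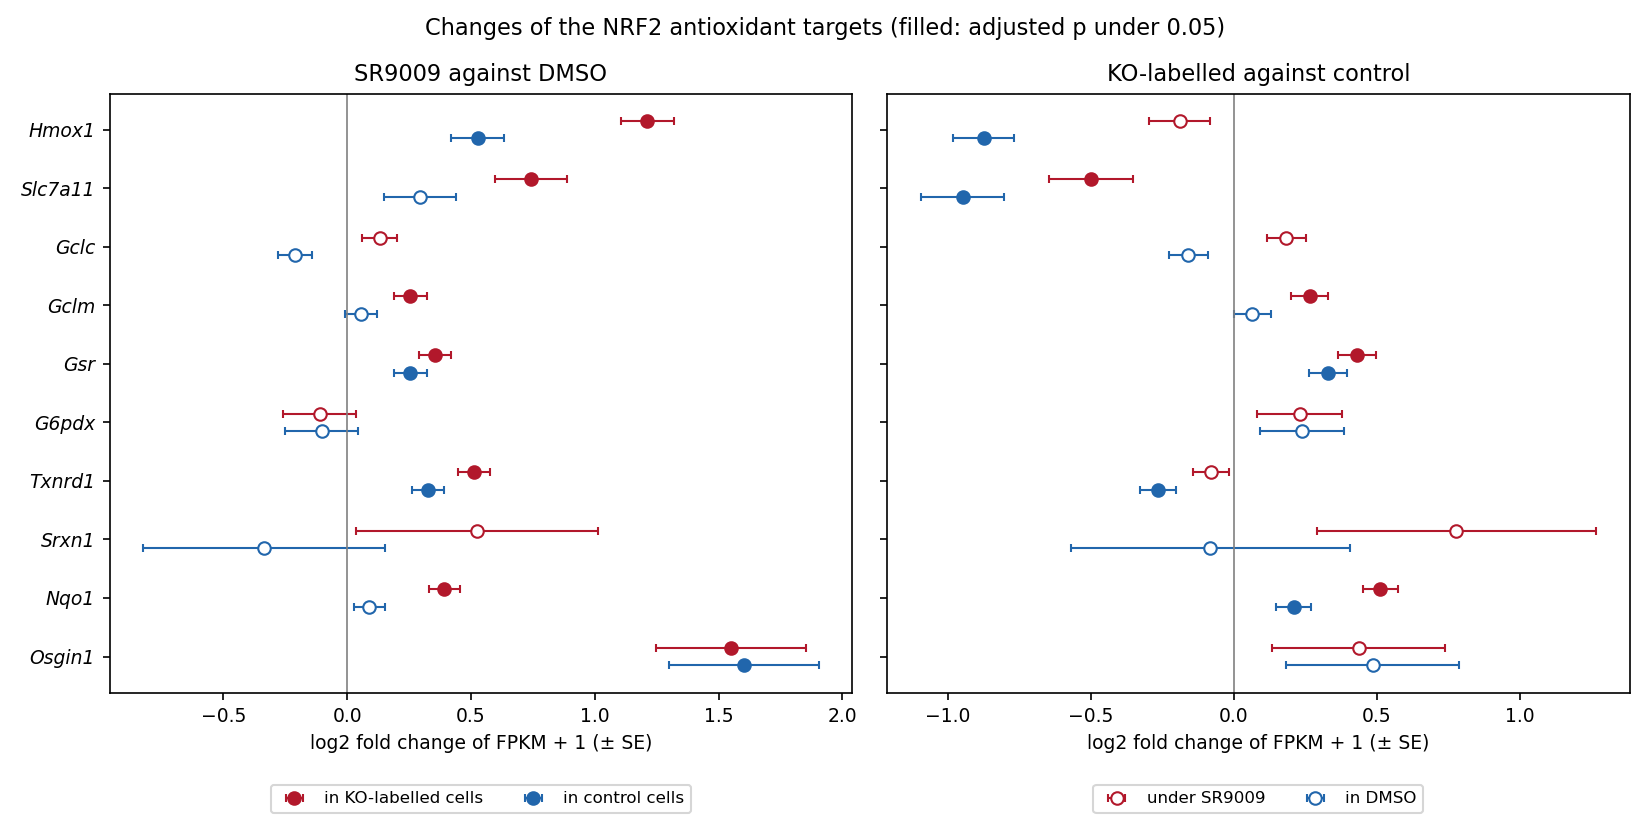
Log2 fold changes on the FPKM + 1 scale (horizontal axes, points with SE from limma) of SR9009 against DMSO in each genotype (left) and of KO-labelled against control cells in each treatment (right). Filled points passed an adjusted p of 0.05. In KO-labelled cells 7 points are filled for SR9009, in control cells 4, and Hmox1 and Slc7a11 lie furthest left for KO-labelled against control in DMSO.

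Between genotypes, some of these genes were called higher and others lower. In DMSO, Gsr and Nqo1 rose and Hmox1, Slc7a11 and Txnrd1 fell in KO-labelled cells, which is 2 and 3 of 10, against 11.7% of tested genes called higher and 8.32% called lower. The median log2 difference of the 10 was -0.0079, against 0.035 over all tested genes. Under SR9009, Gclm, Gsr and Nqo1 rose and Slc7a11 fell, which is 3 and 1 of 10, against 12.9% called higher and 7.43% called lower. Over all genes that split was 1450 higher and 833 lower, and 1042 higher and 1120 lower after median-ratio scaling. The 2 higher in DMSO and the 1 lower under SR9009 lay near the shares of all tested genes. The DMSO calls of Nqo1 and Txnrd1 ended in 9 and 1 of 21 alternatives. Under SR9009 those of Slc7a11 and Gclm ended in 7 and 1 of 21. By mean, KO-labelled DMSO was the lowest of the 4 groups for Hmox1, Slc7a11, Txnrd1 and Srxn1. Control DMSO was the lowest for Gsr, Nqo1, Gclm and Osgin1, and control SR9009 for Gclc and G6pdx.

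KO-labelled SR9009 and control DMSO differ in both factors. Between them 7 of the 10 did not overlap and were higher in KO-labelled SR9009, against 25.6% of tested genes. The ratios of means were 4.33 for Osgin1, 1.61 for Gsr, 1.55 for Nqo1, 1.36 for Srxn1, 1.27 for Hmox1, 1.25 for Gclm and 1.19 for Txnrd1. Gclc, G6pdx and Slc7a11 overlapped, at 0.981, 1.12 and 0.86. Control SR9009 and KO-labelled DMSO also differ in both factors, and were the highest and lowest groups for Hmox1, Slc7a11 and Txnrd1. The ratios of means for these genes were 2.68, 2.53 and 1.51. Srxn1 and Osgin1 were also higher by mean in control SR9009, while Nqo1, Gsr, Gclm, Gclc and G6pdx were higher in KO-labelled DMSO. Neither contrast was fitted, and each mixes both factors.

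Whether SR9009 acted differently by genotype was tested by the interaction, the SR9009 log2 fold change in KO-labelled cells minus that in control cells. None of the 10 passed in limma, where 3 of 11213 genes did (Gstm3, Hmox2 and Vma21, the last at 1.15 with adjusted p = 0.0414 and lost in 18 of 20 alternatives), which is 0.0268%, while 3 of the 10 and 7.02% of tested genes had an unadjusted p under 0.05. The interaction of Hmox1 was 0.68 (95% confidence interval 0.35 to 1.02, unadjusted p = 0.000716, adjusted p = 0.324). For Gclc it was 0.34 (0.13 to 0.56, adjusted p = 0.549) and for Nqo1 0.30 (0.11 to 0.49, adjusted p = 0.555). Osgin1 had -0.05 with an interval of -1.0 to 0.90, Gsr 0.10 with -0.10 to 0.30 and Txnrd1 0.19 with -0.0096 to 0.38. Slc7a11 had 0.45 with -0.0021 to 0.90, and Srxn1 0.86 with -0.68 to 2.40, or 0.092 without its low library. These intervals do not show that the compound acted alike in both genotypes, and the count of 7 against 4 risers is not a test of a difference.

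The regulators of the pathway were examined from a list of 10, all tested. In KO-labelled cells SR9009 raised 2 and lowered 1, in control cells it raised 2 and lowered 1, and in DMSO 1 rose and 3 fell in KO-labelled cells. The shares of all tested genes called higher and lower were 5.32% and 4.56%, 3.69% and 4.55%, and 11.7% and 8.32% in the same order. The median log2 changes were 0.011, -0.060 and -0.066, against 0.0042, -0.016 and 0.035 over all tested genes. NRF2 and KEAP1 themselves did not pass: Nfe2l2 averaged 64.1 ± 3.34, 60.4 ± 1.25, 59.6 ± 3.32 and 57.5 ± 2.35 FPKM in KO-labelled SR9009, KO-labelled DMSO, control SR9009 and control DMSO. In the same order, Keap1 averaged 22.3 ± 1.16, 23.5 ± 1.24, 22.1 ± 1.12 and 23.9 ± 0.587 FPKM. These are transcript levels, and the NRF2 protein was not measured.

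Bach1, the repressor, had 14.9, 15.8 and 17.9 FPKM in KO-labelled SR9009 and 20.9, 18.6 and 20.8 FPKM in KO-labelled DMSO libraries. It had 39.5, 35.8 and 33.3 FPKM in control SR9009 and 48.8, 47.8 and 48.5 FPKM in control DMSO libraries. No groups overlapped, and both KO-labelled groups lay below both control groups. It fell 2.41-fold in KO-labelled cells in DMSO (log2 fold change -1.23, SE 0.08, adjusted p = 4.62e-07), and with SR9009 in control cells (log2 fold change -0.41, SE 0.08, adjusted p = 0.00873) and in KO-labelled cells (log2 fold change -0.30, SE 0.08, adjusted p = 0.0393). The call in KO-labelled cells ended in 13 of 21 alternatives, with adjusted p up to 0.158. Under SR9009 it was also lower in KO-labelled cells (log2 fold change -1.11, adjusted p = 1.04e-06). Hmox1, which BACH1 is known to repress, was lower in KO-labelled cells in DMSO, did not pass between genotypes under SR9009 (log2 difference -0.19), and rose with SR9009 in each genotype. The part of Bach1 in the Hmox1 levels was not tested.

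Maff, a small MAF protein that partners NRF2 and BACH1, had 37.9, 35.6 and 34.7 FPKM in KO-labelled SR9009 and 31.1, 25.4 and 27.2 FPKM in KO-labelled DMSO libraries, against 65.9, 67.7 and 66.6 FPKM in control SR9009 and 58.3, 51.5 and 49.6 FPKM in control DMSO libraries. It was lower in KO-labelled cells in DMSO (log2 fold change -0.91, SE 0.08, adjusted p = 5.54e-06). With SR9009 it rose in KO-labelled cells (log2 fold change 0.36, adjusted p = 0.0123; 0.0559 without KO-labelled DMSO library 2 and 0.0607 without KO-labelled SR9009 library 1) and in control cells (log2 fold change 0.33, adjusted p = 0.0250), where the call ended in 6 of 21 alternatives, with adjusted p up to 0.103. Sqstm1 encodes p62, which sequesters KEAP1 and is itself an NRF2 target. It had 2044, 1918 and 1791 FPKM in KO-labelled SR9009 and 1517, 1519.7 and 1451 FPKM in KO-labelled DMSO libraries, against 1558, 1394 and 1456 FPKM in control SR9009 and 1152, 1142 and 1115 FPKM in control DMSO libraries. Sqstm1 rose with SR9009 in KO-labelled cells (log2 fold change 0.36, adjusted p = 0.00230) and in control cells (0.37, adjusted p = 0.00225), and was higher in KO-labelled cells in DMSO (0.40, adjusted p = 0.000423). Mafk, another small MAF protein, averaged 45.7 ± 1.42 FPKM in KO-labelled DMSO and 55.1 ± 1.31 FPKM in control DMSO (log2 difference -0.26, adjusted p = 0.00377).

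**Figure D3:**
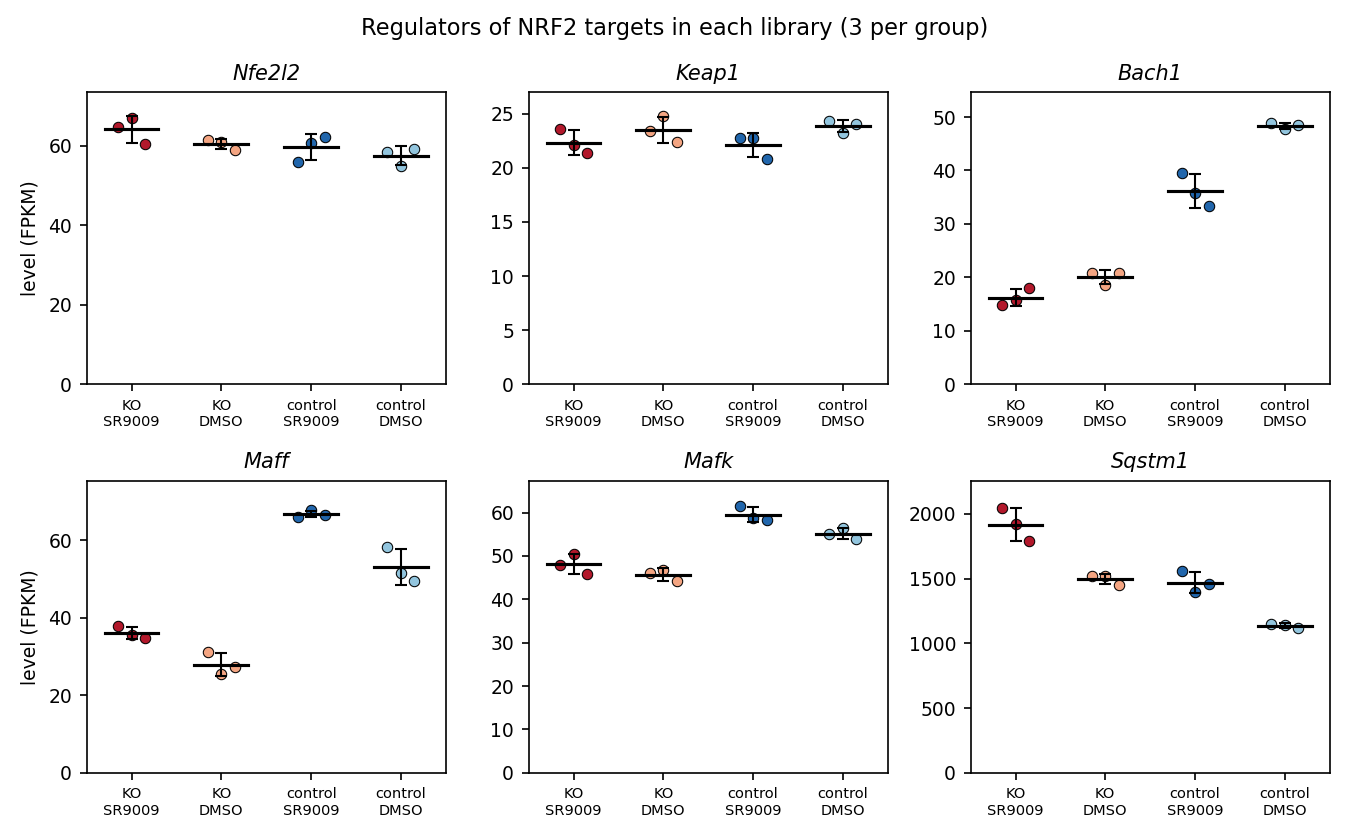
Levels in FPKM (vertical axes from 0) of 6 regulators of NRF2 targets in each library, by group. Points are libraries, the long line is the mean and the error bar the SD (n = 3). Bach1 falls into 4 separate groups with KO-labelled SR9009 lowest (14.9 to 17.9 FPKM), Sqstm1 is lowest in control DMSO, and no change of Nfe2l2 or Keap1 passed the threshold.

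A wider list held 31 other NRF2 targets, 30 of them tested. With SR9009 in KO-labelled cells 8 rose, 0 fell and 22 did not pass, with a median log2 fold change of 0.17, and 4 to 12 rose over the alternatives (4 without KO-labelled DMSO library 3 or KO-labelled SR9009 library 1 or 2). There 5.32% of all tested genes were called higher and 4.56% lower, with a median of 0.0042. In control cells 5 rose, 0 fell and 25 did not pass, with a median of 0.078. Over all tested genes the control shares were 3.69% higher and 4.55% lower, with a median of -0.016. Between genotypes in DMSO 10 rose and 8 fell (5 fell without control DMSO library 3 or KO-labelled DMSO library 1 or 2), against 11.7% and 8.32% of all tested genes. The 4 with the smallest p were glutathione transferases, which couple glutathione to electrophiles. Gstm3 averaged 1286 ± 19.0 FPKM in KO-labelled SR9009 and 751 ± 14.9 FPKM in KO-labelled DMSO (adjusted p = 6.97e-05), against 317 ± 15.8 FPKM in control SR9009 and 104 ± 13.0 FPKM in control DMSO (adjusted p = 1.68e-07). Its interaction passed (log2 -0.83, adjusted p = 0.0307), meaning a smaller SR9009 change in KO-labelled cells, but that call ended in 14 of 20 alternatives, with adjusted p up to 0.256. Gstm2 averaged 120.3 ± 11.2 FPKM in KO-labelled DMSO and 33.3 ± 1.31 FPKM in control DMSO, and Gstm1 3934 ± 141 and 1868 ± 53.4 FPKM (adjusted p of 4.02e-09 and 7.65e-08). Gsta4 went the other way, with 25.6 ± 1.32 FPKM in KO-labelled DMSO and 64.2 ± 2.91 FPKM in control DMSO (adjusted p = 9.29e-08). Reads of this family can be split between near-identical copies, and Gstm3 overlaps Gstm6 on the same strand by 1417 bp, so their single levels are uncertain.

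Of 10 tested genes of the glutathione cycle beyond the 10 targets, Slc3a2 and Glrx rose with SR9009 in KO-labelled cells and 0 fell, where 5.32% of all tested genes were called higher. That count was 0 without KO-labelled DMSO library 2 or 3 or KO-labelled SR9009 library 1 or 2. In control cells 0 passed with SR9009, and in DMSO 1 rose and 4 fell in KO-labelled cells (2 fell without control DMSO library 1 or 2 or KO-labelled DMSO library 3). In that DMSO comparison 11.7% of all tested genes were called higher and 8.32% lower. With SR9009 4.56% were called lower in KO-labelled cells. In control cells 3.69% were called higher and 4.55% lower with SR9009, and the count of 0 there is near these shares. Slc3a2, the heavy chain that carries xCT to the membrane, averaged 114 ± 19.5 FPKM in KO-labelled SR9009 and 83.8 ± 6.71 FPKM in KO-labelled DMSO, against 95.4 ± 6.06 FPKM in control SR9009 and 111 ± 7.35 FPKM in control DMSO. It rose with SR9009 in KO-labelled cells (log2 fold change 0.43, adjusted p = 0.0301) and was lower in KO-labelled cells in DMSO (-0.41, adjusted p = 0.0221), as was its partner Slc7a11. These calls ended in 6 and 5 of 21 alternatives, with adjusted p up to 0.13 and 0.0769. Glutathione peroxidase 1, Gpx1, was lower in KO-labelled DMSO (1230.4 ± 54.5 FPKM) than in control DMSO (1589 ± 45.2 FPKM; adjusted p = 0.00169, but 0.247 after quantile normalization). Glutaredoxin, Glrx, rose with SR9009 in KO-labelled cells (log2 fold change 0.31, adjusted p = 0.0224, up to 0.096 in the 4 of 21 alternatives that ended the call) and was lower in KO-labelled cells in DMSO (12.6 ± 0.657 FPKM in KO-labelled DMSO and 16.6 ± 0.711 FPKM in control DMSO, adjusted p = 0.00419), while glutathione synthetase, Gss, was higher (113 ± 1.80 and 92.3 ± 1.59 FPKM in the same groups, adjusted p = 0.00728). The Gss model overlaps that of Acss2 on the opposite strand by 22544 bp. Acss2 averaged 18.9 FPKM, so the Gss level is uncertain.

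Of 12 genes of thioredoxin and superoxide defence, 2 rose with SR9009 in KO-labelled cells, 1 rose in control cells and 0 fell. Among all tested genes 5.32% were called higher and 4.56% lower in KO-labelled cells, and 3.69% and 4.55% in control cells. Leaving out KO-labelled DMSO library 3 or KO-labelled SR9009 library 1 or 2 brought the KO-labelled count to 0, and leaving out control DMSO library 3 or control SR9009 library 1 or 2 brought the control count to 0. In DMSO 3 rose and 3 fell in KO-labelled cells (1 fell without control DMSO library 2 or KO-labelled DMSO library 1), against 11.7% of all tested genes called higher and 8.32% lower. Cat, which encodes catalase, averaged 733 ± 17.3 FPKM in KO-labelled DMSO and 572 ± 19.5 FPKM in control DMSO (adjusted p = 0.000645). Sod1, the cytosolic superoxide dismutase, averaged 704 ± 38.7 FPKM in KO-labelled DMSO and 921 ± 33.4 FPKM in control DMSO (adjusted p = 0.00938). Prdx3, a mitochondrial peroxiredoxin, rose in the same comparison (log2 difference 0.25, adjusted p = 0.00607). Prdx5 rose with SR9009 in KO-labelled cells (log2 fold change 0.34, adjusted p = 0.0149), a call lost without KO-labelled DMSO library 3 or KO-labelled SR9009 library 1 or 2 (adjusted p of 0.0574, 0.0596 and 0.0533).

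Lists of other stress responses were counted beside these. Over all tested genes, SR9009 was called to raise 5.32% and lower 4.56% in KO-labelled cells, and 3.69% and 4.55% in control cells. In DMSO 11.7% were called higher and 8.32% lower in KO-labelled cells. The all-gene medians in these comparisons were 0.0042, -0.016 and 0.035. The list of ATF4 targets also holds Atf4 itself. Of its 9 tested genes, 3 rose and 1 fell with SR9009 in KO-labelled cells, 3 rose and 0 fell in control cells, and 0 rose and 4 fell in KO-labelled cells in DMSO, with medians of 0.17, 0.22 and -0.24. In control cells 1 rose without control DMSO library 1 or control SR9009 library 1, and in DMSO 2 fell without control DMSO library 1 or KO-labelled DMSO library 3. Asns, asparagine synthetase, averaged 21.2 ± 2.18 FPKM in KO-labelled DMSO and 36.7 ± 3.14 FPKM in control DMSO (adjusted p = 0.000193). Trib3, a pseudokinase, rose with SR9009 in both genotypes (log2 fold change 0.51 in KO-labelled and 0.34 in control cells, adjusted p of 0.000935 and 0.0135), as did the amino acid transporter Slc7a5 (0.53 and 0.41, adjusted p of 0.00662 and 0.0300). The control calls of Trib3 and Slc7a5 ended in 3 and 8 of 21 alternatives, with adjusted p up to 0.0622 and 0.0964. Ddit3, which encodes CHOP, rose with SR9009 in control cells (log2 fold change 0.63, adjusted p = 0.00188). Of 8 heat shock genes, 4 rose with SR9009 in KO-labelled cells (Hspb1, Hspa8, Hsp90aa1 and Hsph1), 0 in control cells, and 2 fell in KO-labelled cells in DMSO (1 without control DMSO library 3). None of the 8 passed the interaction, so 4 against 0 is not a test of a difference. The calls of Hsph1 and Hsp90aa1 ended in 6 and 1 of 21 alternatives, with adjusted p up to 0.112 and 0.0526. Hspb1 averaged 78.9 ± 5.20 FPKM in KO-labelled SR9009 and 63.2 ± 4.12 FPKM in KO-labelled DMSO, against 187 ± 8.64 FPKM in control SR9009 and 179 ± 2.26 FPKM in control DMSO.

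Heme handling was followed because Hmox1 degrades heme. Of 9 tested genes, 0 passed with SR9009 in KO-labelled cells, 1 rose and 2 fell in control cells (4 fell without control SR9009 library 3), and 2 rose and 1 fell in KO-labelled cells in DMSO (0 rose without KO-labelled DMSO library 2 or 3). The shares of all tested genes called higher and lower in these comparisons were 5.32% and 4.56%, 3.69% and 4.55%, and 11.7% and 8.32%. Hmox2, the constitutive heme oxygenase, had 35.2, 35.5 and 38.2 FPKM in KO-labelled SR9009 and 33.4, 33.6 and 35.4 FPKM in KO-labelled DMSO libraries. It had 20.7, 21.5 and 21.2 FPKM in control SR9009 and 40.3, 35.0 and 35.1 FPKM in control DMSO libraries, so that only the control SR9009 group stood apart. It fell with SR9009 in control cells (log2 fold change -0.77, adjusted p = 3.02e-05), where Hmox1 rose, and its interaction passed (0.86, adjusted p = 0.00854) but ended in 4 of 20 alternatives, with adjusted p up to 0.0938, including without KO-labelled DMSO library 1 or 2 (0.051 and 0.0552). The Hmox2 model overlaps that of 5730403B10Rik on the opposite strand by 16395 bp, and that gene averaged 35.9 FPKM, so the Hmox2 level is uncertain. Alas1, the first enzyme of heme synthesis, rose with SR9009 in control cells (307 ± 41.3 FPKM in control SR9009 and 165 ± 31.3 FPKM in control DMSO, adjusted p = 0.00570). Slc40a1, the iron exporter ferroportin, fell there (log2 fold change -0.36, adjusted p = 0.00999; 0.0746 with these groups alone).

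**Figure D4:**
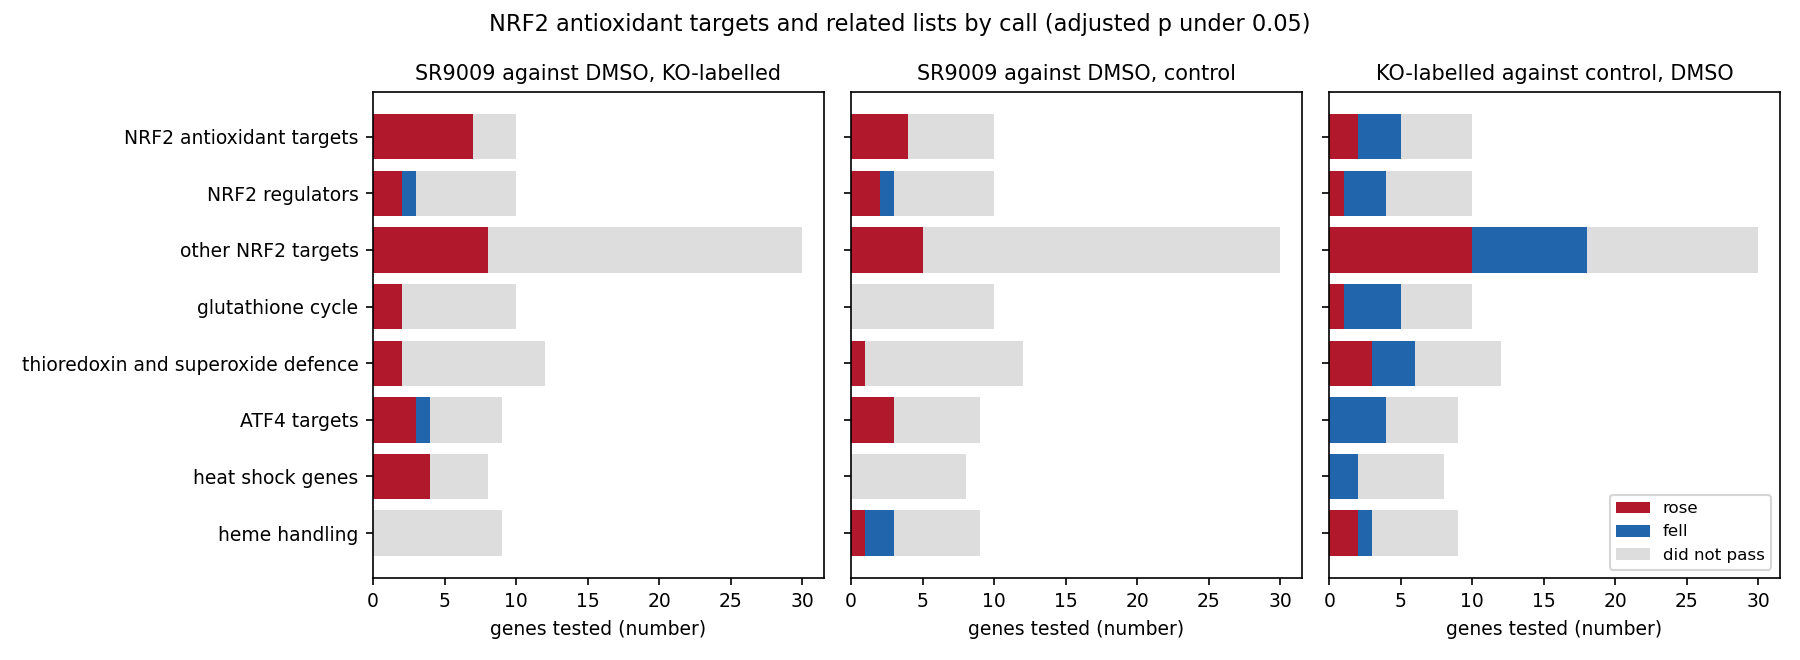
Number of tested genes in each list (horizontal axes) that rose, fell or did not pass an adjusted p of 0.05, for SR9009 against DMSO in KO-labelled cells (left) and control cells (middle) and for KO-labelled against control cells in DMSO (right). The NRF2 antioxidant targets have 7, 4 and 2 risers, and the list of ATF4 targets, which also holds Atf4 itself, has 4 fallers on the right.

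For each gene past the threshold, the other gene with the most similar profile was found by the root mean square difference of log2 values, each centred on its mean over the 12 libraries. Slc2a1, a glucose transporter, was nearest to both Hmox1 (difference 0.194) and Slc7a11 (0.143). It averaged 28.1 FPKM in KO-labelled SR9009, 16.1 in KO-labelled DMSO, 40.7 in control SR9009 and 30.3 in control DMSO. Slc7a5 was nearest to Txnrd1 (0.0642), Fam108c to Nqo1 (0.0661), Zadh2 to Gsr (0.0706), Zc3hav1 to Gclm (0.0418) and 5430435G22Rik to Osgin1 (0.368). Of the 10 genes, 4 lie on chromosome 8 (Hmox1, Nqo1, Osgin1 and Gsr) and 2 on chromosome 3 (Gclm and Slc7a11).

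Kupffer cells, the liver macrophages, express Hmox1 strongly, so their markers were read beside it. The table held 11 markers (Adgre1 under its older symbol Emr1), 9 of them tested, and their summed level was 47.1 to 49.6 FPKM in KO-labelled SR9009, 37.1 to 48.9 in KO-labelled DMSO, 51.1 to 56.1 in control SR9009 and 50.9 to 64.3 in control DMSO libraries. The largest part of this sum was Cd68, at 20.6 to 31.2 FPKM in KO-labelled and 16.2 to 20.5 in control libraries. Marco ran the other way, at 1.29 to 2.72 FPKM in KO-labelled and 7.89 to 10.8 in control libraries. In DMSO 1 rose and 4 fell in KO-labelled cells (2 fell without control DMSO library 2 or 3 or KO-labelled DMSO library 1 or 2), the direction in which Hmox1 differed, and the part of this in the Hmox1 difference was not tested. Between genotypes under SR9009, 1 of the 9 rose and 1 fell in KO-labelled cells. Log2 differences were positive for 1 of the 9 in DMSO and 2 under SR9009, with medians of -0.29 and -0.25. Of all tested genes, 11.7% were called higher and 8.32% lower in DMSO, and 12.9% and 7.43% under SR9009. With SR9009, 0 of the 9 passed in either genotype, which is near the shares of all tested genes. Those shares were 5.32% called higher and 4.56% lower in KO-labelled cells, and 3.69% and 4.55% in control cells. Clec4f, the defining marker, ranged from 1.62 to 4.18 FPKM. Endothelial markers summed to 8.27 to 8.73 FPKM in KO-labelled SR9009, 8.60 to 12.8 in KO-labelled DMSO, 5.85 to 6.95 in control SR9009 and 5.43 to 6.17 in control DMSO libraries, and 2 of 3 tested rose in KO-labelled cells in DMSO (1 without control DMSO library 2 or 3 or KO-labelled DMSO library 1 or 3). Cholangiocyte markers summed to 34.5 to 38.7, 29.1 to 38.8, 39.4 to 61.7 and 42.1 to 44.7 FPKM in the same order of groups. Of these, Sox9 averaged 11.1 ± 0.600, 9.09 ± 1.37, 3.58 ± 0.779 and 2.67 ± 0.532 FPKM and was higher in KO-labelled cells in DMSO (adjusted p = 1.57e-05), while Spp1 was lower (adjusted p = 0.00505). The part of these in the results was not tested. Stellate cell markers summed to between 1.71 and 3.10 FPKM in all libraries.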

How the data were processed

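RNA was extracted from hepatocytes, polyadenylated RNA was selected with oligo(dT) beads, ribosomal RNA was removed with Ribo-Zero, and NEBNext Ultra II libraries were made, per the labels' protocols. HISAT2, StringTie and the mm9 build are named in the submitters' processing notes; no source used here gives versions, annotation or strand setting. A table deposited by the authors holds values of 37991 genes without naming the unit. It was read as deposited FPKM, since libraries summed to different totals and the steps between low values grew shorter with gene length. The 11213 genes that reached 1 FPKM in 3 or more libraries were analysed as log2(FPKM + 1), with a pseudocount of 1, by limma 3.58.1 in R 4.3.3 (a mean per group over 12 libraries, trend and robust variance). Benjamini-Hochberg adjustment covered every gene tested, with a threshold of 0.05. The fit was tested on simulated data. No 2 libraries shared equal values for more than 0.0535% of tested genes.

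The genes described, the lists, the markers and the alternatives were chosen with earlier results of these data known. Named besides the 10 genes, Nr1d1, Nr1d2, Nfe2l2, Keap1 and Bach1 were, from each list, up to 4 genes with the smallest p over the SR9009 comparisons and the DMSO genotype comparison, and the nearest profile of each gene past the threshold. Vma21, the remaining interaction gene, was named after its values were seen. Alternatives were a pseudocount of 0.1, no filter or at least 5 FPKM, quantile normalization, median-ratio scaling, only the groups compared, plain variance, a replicate block, and leaving out each library or the 2 shallowest. Replicate numbers were not taken to pair libraries. Promoter windows came from RefSeq (GRCm38.p6), and coordinates of genes are those of the deposited table.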

Additional observations from a re-analysis of the deposited data

Results flagged for a closer look

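The SR9009 change differed between genotypes by the interaction test for Gstm3, Hmox2 and Vma21 (limma, adjusted p of 0.0307, 0.00854 and 0.0414), none of them among the 10 antioxidant targets. These calls ended in 14, 4 and 18 of 20 alternatives, with adjusted p up to 0.256, 0.0938 and 0.195, and all 3 ended with the replicate number as a block. The log2 fold change in KO-labelled cells minus that in control cells was -0.83 for Gstm3, 0.86 for Hmox2 and 1.15 for Vma21. Gstm3 rose with SR9009 in both genotypes, with log2 fold changes of 0.77 in KO-labelled and 1.61 in control cells. Hmox2 fell in control cells, with log2 fold changes of 0.09 in KO-labelled and -0.77 in control cells.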

How the results depend on the processing

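Among the NRF2 antioxidant targets, 7 rose with SR9009 in KO-labelled cells, and 6 to 8 with 1 library left out. In control cells 4 rose, with 2 in the fit to only these groups and 2 to 5 with 1 library left out. Between genotypes, 4 passed under SR9009 (2 with only these groups, 3 to 4 with 1 library left out) and 5 in DMSO (4 to 6). No interaction of the 10 passed in any alternative. Over all genes, 1107 passed for SR9009 in KO-labelled cells (603 to 1438 with 1 library left out, lowest without KO-labelled SR9009 library 1) and 924 in control cells (530 to 919, lowest without control DMSO library 3; 376 with only these groups; 609 without the 2 shallowest libraries). The genotype counts were 2283 under SR9009 (1651 to 2253; 1518 with only these groups) and 2240 in DMSO (1607 to 2718). The interaction count of 3 became 1 without the filter, after quantile normalization, with plain variance and without the 2 shallowest libraries, and 0 to 5 with 1 library left out.

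Directions turned where the change was small or a library stood apart. With 1 library left out, the SR9009 change of G6pdx ran from -0.24 to 0.021 in KO-labelled cells (positive without KO-labelled SR9009 library 1) and from -0.20 to 0.023 in control cells (positive without control SR9009 library 3). That of Srxn1 in control cells ran from -0.75 to 0.43, positive without control SR9009 library 1 and also, at 0.43, without the 2 shallowest. After quantile normalization the genotype differences of Srxn1 in DMSO and Txnrd1 under SR9009 became 0.18 and 0.012. With 1 library left out, the interaction of Osgin1 ran from -0.26 to 0.27 and that of G6pdx from -0.14 to 0.12, positive in 6 and 5 of 12 fits, and that of G6pdx was 0.088 without the 2 shallowest. The cause was not tested. With the replicate number as a block, the counts over all genes were 958, 793, 2131, 2084 and 0 for SR9009 in KO-labelled and control cells, genotype under SR9009 and in DMSO, and the interaction; the block also ended the DMSO call of Nqo1 (adjusted p = 0.0552). Same-numbered libraries did not deviate together (correlations of -0.112 to 0.0911), so the numbers were not taken as pairs. Depth limits the precision of low genes, and its part in these turns was not tested.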
